A study of Mus musculus with 9 samples.

Results

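The EZH2 peaks described here are those that overlapped, by at least 1 bp, both a peak of the SUZ12 list and a peak of the H3K27me3 list of the same lymphoma cells. They were 8374 of the 18730 EZH2 peaks on the 19 autosomes and the X and Y chromosomes, or 44.7% (95% Wilson interval 44.0 to 45.4%), and are called PRC2 sites below. Chromatin came from thymic T cell lymphoma cells of C57BL/6J mice, a lymphoma driven by MYCN, and all samples shared this strain, tissue and cell type. ChIPmentation, in which a transposase adds the sequencing adapters while chromatin is still held by the antibody, was run with antibodies to EZH2, SUZ12, H3K27me3, H3K4me3, H3K27ac, N-MYC and p300, with 1 library each. The 2 input samples had no antibody and were not analysed here. The labels give no age, no account of how MYCN was expressed and no number of animals behind each library. With 1 library per antibody, the differences below could not be checked in replicates or tested.

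EZH2 is the methyltransferase and SUZ12 a core scaffold of Polycomb repressive complex 2 (PRC2), which places methyl groups on lysine 27 of histone H3, and H3K27me3 is its trimethylated product. In mammals the complex gathers at CpG-rich promoters of genes that are silent in a given cell type, above all those of developmental transcription factors and signalling molecules, and in T cells it is known for holding genes of other lineages inactive. H3K4me3 marks active and poised promoters, H3K27ac marks active promoters and enhancers, and N-MYC and the acetyltransferase p300 bind mostly at active sites.

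The promoters of 5 genes show the range of sequence under these sites: those with the highest EZH2 enrichment in the Hox, other homeobox, Wnt and potassium channel lists, and the strongest site that also lay on all 4 active lists, at Bmi1. Each run holds 300 bases, from 250 before the gene start to 50 after it, 5′ to 3′ on the gene's strand, from RefSeq on assembly GRCm38.p6, and capitals mark CpG dinucleotides. The windows are chr6:52240805-52241104 on the minus strand for Hoxa10, chr1:138842395-138842694 on the minus strand for Lhx9, chr7:98834862-98835161 on the plus strand for Wnt11, chr12:99964249-99964548 on the plus strand for Kcnk13 and chr2:18676768-18677067 on the plus strand for Bmi1. All 5 starts lay inside the EZH2 peak. Hoxa10 was tied in EZH2 fold with Hoxa11 and Hoxa13, which share its site.
Hoxa10: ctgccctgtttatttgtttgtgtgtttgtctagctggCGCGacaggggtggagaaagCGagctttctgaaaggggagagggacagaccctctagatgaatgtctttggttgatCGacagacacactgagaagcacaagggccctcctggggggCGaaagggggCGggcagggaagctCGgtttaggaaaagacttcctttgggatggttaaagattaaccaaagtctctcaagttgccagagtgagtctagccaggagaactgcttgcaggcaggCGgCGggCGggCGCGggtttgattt
Lhx9: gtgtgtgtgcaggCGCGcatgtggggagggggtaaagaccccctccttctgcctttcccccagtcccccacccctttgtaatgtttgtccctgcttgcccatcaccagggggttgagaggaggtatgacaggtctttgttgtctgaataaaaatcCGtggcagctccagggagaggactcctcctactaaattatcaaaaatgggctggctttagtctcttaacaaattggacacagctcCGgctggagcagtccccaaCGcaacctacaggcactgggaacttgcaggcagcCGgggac
Wnt11: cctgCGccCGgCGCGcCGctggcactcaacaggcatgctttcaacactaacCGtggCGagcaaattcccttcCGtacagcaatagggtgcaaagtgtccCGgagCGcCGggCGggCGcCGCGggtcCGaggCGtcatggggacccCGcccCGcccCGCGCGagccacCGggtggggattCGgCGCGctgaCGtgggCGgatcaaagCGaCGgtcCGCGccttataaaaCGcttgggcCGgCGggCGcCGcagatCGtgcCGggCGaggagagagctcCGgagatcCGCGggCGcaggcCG
Kcnk13: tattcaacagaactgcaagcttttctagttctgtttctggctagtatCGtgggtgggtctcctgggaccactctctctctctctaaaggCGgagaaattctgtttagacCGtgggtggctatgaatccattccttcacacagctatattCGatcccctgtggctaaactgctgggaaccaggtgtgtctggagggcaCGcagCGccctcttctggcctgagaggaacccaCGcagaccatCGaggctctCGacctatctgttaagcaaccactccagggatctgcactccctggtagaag
Bmi1: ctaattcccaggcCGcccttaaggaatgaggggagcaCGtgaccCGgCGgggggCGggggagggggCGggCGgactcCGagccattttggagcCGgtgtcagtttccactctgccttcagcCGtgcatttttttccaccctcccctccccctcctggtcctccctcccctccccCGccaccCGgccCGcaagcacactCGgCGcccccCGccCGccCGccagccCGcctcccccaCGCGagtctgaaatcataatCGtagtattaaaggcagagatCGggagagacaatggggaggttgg

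Wnt11, which encodes a secreted Wnt ligand, had 45 CpG in this window and an observed over expected ratio of 1.18, and Bmi1, which encodes a subunit of Polycomb repressive complex 1, had 23 CpG and a ratio of 0.708. Hoxa10, a homeobox gene of posterior identity, had 12 CpG (0.596), Kcnk13, a gene for a background potassium channel, had 9 (0.434), and Lhx9, a LIM homeobox gene of gonad and limb, had 6 (0.261). The site at Lhx9 had an EZH2 fold enrichment of 23.3 and that at Wnt11 one of 14.0, so the order of CpG content was not the order of enrichment. Fold enrichment is here always the authors' linear ratio of a peak over background, used to describe peaks within a list.

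The sites also covered miRNA genes, and the miRNAs below are shown because several share a seed or lie in more than 1 site. Sequences are mature strands from RefSeq, 5′ to 3′, with the seed (bases 2 to 8) in capitals.
miR-9-5p: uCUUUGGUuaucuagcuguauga
miR-196a-5p: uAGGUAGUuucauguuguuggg
miR-196b-5p: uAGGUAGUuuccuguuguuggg
miR-34b-5p: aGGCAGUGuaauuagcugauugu
miR-449c-5p: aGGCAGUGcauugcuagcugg
miR-34b-3p: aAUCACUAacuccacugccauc
miR-34c-3p: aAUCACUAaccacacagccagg

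miR-9-5p is encoded by Mir9-1, Mir9-2 and Mir9-3 on chromosomes 3, 13 and 7, and all 3 hairpins lay in PRC2 sites, with EZH2 folds of 13.3, 4.81 and 4.38 and widths of 13342, 2968 and 9077 bp. miR-9 is known for its part in neural differentiation. The seed AGGUAGU was shared by miR-196a-5p and miR-196b-5p, whose hairpins lie inside the Hox clusters. Mir196a-2 lay in the HoxC site (fold 19.4), Mir196b in a HoxA site (14.8) and Mir196a-1 in a HoxB site (5.54). The seed GGCAGUG was shared by miR-34b-5p and miR-449c-5p, whose hairpins lay on chromosomes 9 and 13 in sites of fold 8.24 and 6.96. Mir34b and Mir34c, known as targets of p53, lay in the same site and share the seed AUCACUA in their 3p strands. In all, 31 of 1005 hairpins with a RefSeq entry overlapped 25 PRC2 sites, wholly or in part, a share of 3.08%. Of 49943 annotated genes of any type, 7.98% met a PRC2 site over their whole length. Longer genes meet a site more easily and hairpins are short, so the 2 shares are not directly comparable. For comparison, 43 hairpins (4.28%) overlapped EZH2 peaks with neither SUZ12 nor H3K27me3. Other hairpins in PRC2 sites were those of Mir129-2 (fold 11.1), Mir152 (7.87), Mir193a (6.70), Mir375 (6.43), Mir203 (5.75) and Mir125b-1 (5.43).

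The 7 lists had 282301 peaks and held no peak with a −log10 q-value under 2, and the read depth behind them is not given in the sources used here. The labelled cell type was read from 14 T-cell marker genes, of which 13 could be matched. H3K4me3 and H3K27ac peaks lay at the start (or, where no start was known, at a gene end) of 9 of the 13, with H3K4me3 folds of 36.3 at Cd3d, 33.2 at Cd3e and 30.4 at Tcf7, which encode T-cell receptor signalling chains and a T-cell transcription factor. Of the other 4, Cd8a (fold 8.29) and Rag1 (13.9) carried H3K27me3 as their only peak, and Cd8b1 and Ptcra carried none. H3K27me3 lay at 4 of the 13 in all, and no PRC2 site lay at any of them. Gata3, a T-cell transcription factor, came nearest: EZH2 (7.22), SUZ12 (4.41) and H3K27me3 (4.04) peaks all lay within 1 kb of its start, but no EZH2 peak in this window met both. Among markers of other cell types, PRC2 sites lay at Pax5 (EZH2 fold 13.4) and Ebf1 (8.60), of 6 B-cell genes, at Cebpa (12.6), of 6 myeloid genes, at Krt8 (8.22), of 6 thymic epithelial genes, and at Col1a1 (4.99) and Pdgfra (13.2), of 5 fibroblast genes. They lay at none of 4 endothelial and none of 4 erythroid genes, and all 4 erythroid genes carried H3K4me3. H3K4me3 also lay at 2 B-cell, 1 myeloid and 1 thymic epithelial gene and at none of the endothelial or fibroblast genes. H3K27ac lay at 3 B-cell, 3 myeloid, 3 thymic epithelial, 4 erythroid, 1 endothelial and 1 fibroblast gene. What other cells in the sample contributed was not tested.

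The rule used the positions of the EZH2, SUZ12 and H3K27me3 peaks, so a wide EZH2 peak meets the other lists more easily, and widths, spacing and the 3 enrichments are given as a description. At the edge of the rule, 86 PRC2 sites had at most 20 bp inside a SUZ12 peak, with EZH2 folds from 2.69 to 6.16 (median 4.04) and a median width of 250 bp. Just outside it, 60 EZH2 peaks with H3K27me3 had a SUZ12 peak less than 20 bp away, with folds from 2.74 to 5.33 (median 3.84) and a median width of 283 bp. Of the 1674 EZH2 peaks that met H3K27me3 alone, 1103 (65.9%) lay within 1 kb of a SUZ12 peak. A further 70 EZH2 peaks met SUZ12 alone and 8612 met neither.

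PRC2 sites ran from 200 bp to 63438 bp and had a long upper tail. Their median width was 557 bp (quartiles 306 and 1634 bp), close to the 551 bp of EZH2 peaks with neither feature (327 and 866 bp) and above the 263 bp of those with H3K27me3 alone. The 90th percentile was 3536 bp, against 1212 bp and 479 bp. Over 5 kb wide were 413 PRC2 sites (4.93%) and no other EZH2 peak, and these 413 made up 32.9% of the 12.2 Mb that the sites covered. EZH2 enrichment was higher in wider sites, with a Spearman correlation of 0.716 over the 8374 sites, which come from 1 library. In EZH2 peaks with neither feature it was 0.681. For width with the SUZ12 fold it was 0.437 and with the H3K27me3 fold 0.0866. With EZH2 peaks within 3 kb of each other merged, there were 3543 sites with a median width of 2759 bp.

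**Figure D1:**
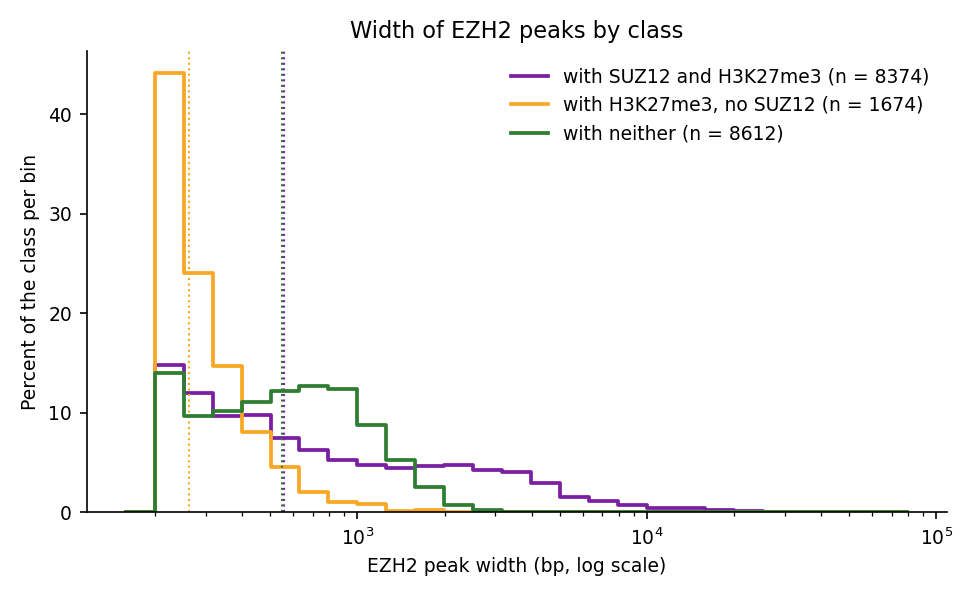
Histogram of EZH2 peak width (bp, log scale) as the percent of each class per bin, for peaks with SUZ12 and H3K27me3 (8374), with H3K27me3 and no SUZ12 (1674) and with neither (8612). Dotted lines are the medians of 557, 263 and 551 bp, and beyond 5 kb lie sites of the first class alone.

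The widest sites lay over Hox clusters and an array of ribosomal RNA genes. The site of 63438 bp ran from Evx2 through Hoxd13 to Hoxd3 on chromosome 2, with an EZH2 fold of 10.2. The next, of 63100 bp, lay at chr8:123537232-123600331 over no protein-coding gene but over an array of 5S ribosomal RNA genes, and had a fold of 10.1. Sites of 39390 bp (Hoxb9 to Hoxb5), 36506 bp (Hoxc12 to Hoxc10) and 34509 bp (Hoxc10 to Hoxc6) followed. Among the next widest were sites at Pax6 (33197 bp), the regulator of eye development, and Zic2 with Zic5 (31987 bp). They were named by extending the rule for the 5 widest after their values were seen.

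The 10 strongest sites by EZH2 fold lay at genes of several kinds. Behind the 3 strongest, at Sp9 (28.8), Gjc1 (27.4), a gap junction gene, and Bahcc1 (26.3), came Tbr1 (26.2), a T-box gene of cortical neurons, Sox21 (26.2), a neural Sox gene, and Lbx1 (26.1), a homeobox gene of muscle precursors and spinal cord. They were followed by Bmi1 (25.5) and Cbx8 (24.8), which encode subunits of Polycomb repressive complex 1, by the site over Hoxa10, Hoxa11 and Hoxa13 (24.3), and by Smad6 (23.3), which encodes an inhibitor of BMP signalling. Of these 10, the sites at Sp9, Gjc1, Bahcc1 and Lbx1 overlapped none of the 4 active lists. The sites at Gjc1 and Lbx1 are named by the gene they overlap. The nearest known starts were those of Ccdc103, at 59451 bp, and Tlx1, at 70586 bp, and starts of Gjc1 and Lbx1 themselves were not analysed here. All 10 were between 3973 bp (Bmi1) and 31557 bp (Hoxa10) wide.

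PRC2 sites lay close to each other. The median gap to the nearest other site was 186 bp (quartiles 91 and 532 bp), and 6816 (81.4%, interval 80.5 to 82.2%) had another within 1 kb. EZH2 peaks with H3K27me3 alone had a nearest peak of their own kind within 1 kb in 18.4% of cases and those with neither feature in 29.3%. Chained at gaps of at most 5 kb, the sites made 3479 runs. Single sites made up 1284 of them and pairs 1041, and 1154 runs of 3 or more held 5008 sites (59.8%, 58.7 to 60.8%). The corresponding shares of peaks in runs of 3 or more were 7.77% and 7.85% in the other 2 classes. The median span was 2514 bp over all runs and 4982 bp over runs of 3 or more. These counts take each called peak as 1 site. With neighbours within 3 kb merged, which by construction joins most of them, 0.254% of sites stayed in runs of 3 or more. A start of a protein-coding gene lay within 1 kb of 1908 runs, which was 56.5% of the runs outside chromosome 18, where no starts were known.

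Much of this spacing was that of neighbours inside the same H3K27me3 peak. The 8374 sites lay in 3841 H3K27me3 peaks, which were 3.12% of the 123056 in that list and had a median width of 6654 bp and a median fold of 12.3, against 372 bp and 4.17 for the others. Wholly inside a single H3K27me3 peak were 7715 sites (92.1%), and 6954 (83.0%) shared theirs with another site. Of these H3K27me3 peaks, 1650 held 1 site, 298 held 5 or more and 42 held 10 or more, up to 24. In the SUZ12 list, 6741 of the 11100 peaks (60.7%) met a site, and 5155 sites (61.6%) shared their SUZ12 peak with another.

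The run with the most sites held 24 at chr15:102907481-103041790 and took in the HoxC genes from Hoxc13 to Hoxc4. It spanned 134310 bp, 93.9% of it under EZH2 peaks with folds from 3.68 to 19.4, and none of its sites met an active list. Zdbf2, an imprinted gene, had a run of 22 sites at chr1:63246019-63279477 with 59.3% of its 33459 bp covered and folds from 2.94 to 12.2. Gata4, a heart transcription factor, had 20 sites at chr14:63229315-63274371, with 85.8% covered. Dlx6 and Dlx5, homeobox genes of the face and forebrain, had 19 at chr6:6849325-6883109, with 79.6% covered. Hand2, a gene of heart and limb, had 16 at chr8:57311344-57354709. A run of 16 sites at Hoxd3 and Hoxd4 (chr2:74726169-74753929) differed from the other 5 in that 4 of its sites met H3K4me3 and 4 met H3K27ac.

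**Figure D2:**
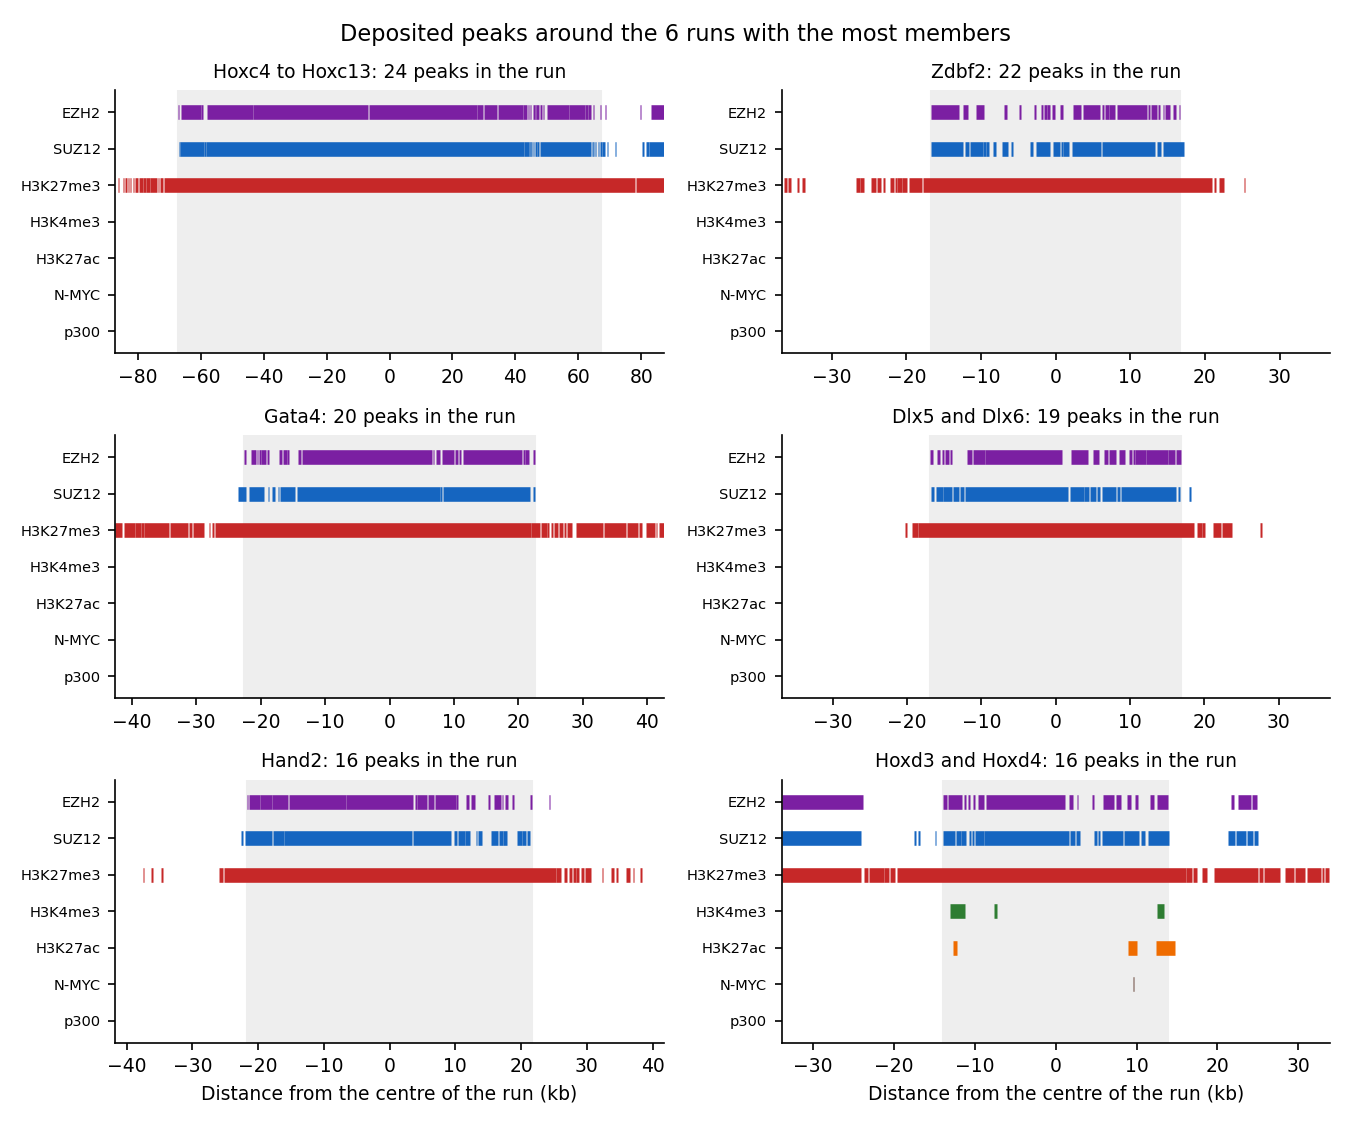
Peaks of the 7 lists around the 6 runs with the most PRC2 sites, by distance from the centre of the run (kb); grey marks the run, each block is a deposited peak, and 20 kb are drawn on either side. Within the grey spans the EZH2 and SUZ12 blocks lie inside H3K27me3 blocks in all 6 runs, and active marks lie in the run at Hoxd3 and Hoxd4.

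The 4 Hox clusters, measured from the first to the last Hox gene, differed in how much of them was covered. HoxC (115.726 kb) was covered to 96.5% by 17 sites, and H3K27me3 peaks covered all of it. HoxD (96.918 kb) was covered to 71.8% by 20 sites, HoxA (105.514 kb) to 52.3% by 8 and HoxB (173.939 kb) to 47.0% by 22. H3K27me3 covered 97.3%, 90.9% and 86.9% of these 3. Hoxa4, Hoxa5 and Hoxa6, neighbours in HoxA, were the Hox genes that no site overlapped, and sites overlapped all 10 genes of HoxB and all 9 each of HoxC and HoxD. H3K4me3 peaks covered 3.27% of HoxD, 1.25% of HoxA and none of HoxC, with HoxB between HoxA and HoxD.

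Position relative to genes was not part of the rule. RefSeq promoters gave a start for 17492 of 21887 protein-coding genes and for none on chromosome 18, so shares of sites near starts are over the 8157 sites on other chromosomes. A protein-coding start lay within 1 kb of 2681 sites (32.9%, 31.9 to 33.9%), against 22.0% of EZH2 peaks with H3K27me3 alone and 74.5% of those with neither feature. Merging neighbours within 3 kb gave 56.6%, a window of 5 kb gave 53.1% and a start inside the peak 19.9%. More than 50 kb from any known protein-coding start lay 1624 sites (19.9%). Of the 5114 sites beyond 1 kb of any annotated start, noncoding genes included, 2336 (45.7%) were in a run with a site at a start, and 1198 (23.4%) were in no such run and outside protein-coding genes. All intervals cover counting error only, and neighbouring peaks are not independent.

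Of the 17492 protein-coding genes with a known start, 1982 had a PRC2 site within 1 kb of it, a background of 11.3% against which each gene list below is read. The strongest site at each of these genes had a median EZH2 fold of 6.57 and a median width of 2016 bp. An H3K4me3 peak lay at 794 of the 1982 starts (40.1%), against 52.1% of all 17492. EZH2 peaks with neither feature lay at 34.0% of all genes, and at 76 of the 1982 (3.83%). The lists were defined by gene symbol, their counts are descriptions with no set test, and genes of a list can share a site.

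Homeobox genes, which encode transcription factors of body patterning, had a PRC2 site at 100 of 132 starts (75.8%, 67.8 to 82.3%). Hox genes had one at 19 of 22, and Hoxa5, Hoxa6 and Hoxd4 lacked it. Other homeobox genes had one at 81 of 110, led by Lhx9 (EZH2 fold 23.3), Shox2 (22.9), a gene of limb and sinus node, and Nkx2-3 (20.7), a gene of spleen and gut vessels. Sites at homeobox starts were wide, with a median of 9569 bp and a median fold of 11.8. With the peak's summit in place of its nearest edge, 50 of 132 (37.9%) passed, and 1743 of all 17492 genes did. An H3K4me3 peak lay at 24 of the 132 starts (18.2%).

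Other developmental transcription factor families also stood above 11.3%. Zic and Gli genes had a site at all 7 starts, with Zic5 highest (20.8). Sox genes had one at 8 of 13, with Sox21, Sox6 (11.5) and Sox14 (11.1) highest, and Sox4, Sox5, Sox11, Sox15 and Sox30 lacking it. Of these 5, Sox4, a Sox gene expressed in lymphocytes, carried H3K4me3, H3K27ac, N-MYC and p300, Sox30 carried the first 3 of these, and the others carried none of the 4. Among the 8 Sox genes with a site, the site met H3K4me3 at 5, including Sox21 and Sox6, and that at Sox6 also met H3K27ac. T-box genes had one at 7 of 12, led by Tbr1, Tbx18 (14.0) and Eomes (12.4), the last also known from cytotoxic T cells. Tbx21, the T-bet gene of T helper cells, lacked a site and carried H3K4me3, H3K27ac and N-MYC, and Tbx6 and Tbx19, which carried H3K27ac, and Tbx10 and Tbx22, with no active list, lacked one as well.

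Developmental bHLH genes had a site at 23 of 40 starts. The highest was at Tal1 (18.9), a regulator of blood stem cells that met H3K4me3 and H3K27ac as well, followed by Neurod2 (15.3) and Olig2 (15.0), genes of neurons and oligodendrocytes. Forkhead genes had one at 14 of 28, led by Foxd1 (23.3) of kidney stroma, Foxl2 (20.5) of the ovary and Foxi3 (18.4). Of the 4 GATA genes with a known start, Gata2 (12.3) and Gata5 (7.57) had a site, while Gata1 and Gata3 lacked it and carried H3K4me3 and H3K27ac. By either gene end, 5 of 6 GATA genes had a site, where 12.3% of all 21887 genes did. KLF and SP genes had a site at 7 of 20 and nuclear receptors at 14 of 42, the latter led by Nr5a2 (17.3) and Nr2e1 (15.8). The large family of Zfp zinc finger genes had 21 of 329 (6.38%), below the background, with Zfp503 (16.9) highest, and 268 of its 329 starts carried H3K4me3.

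**Figure D3:**
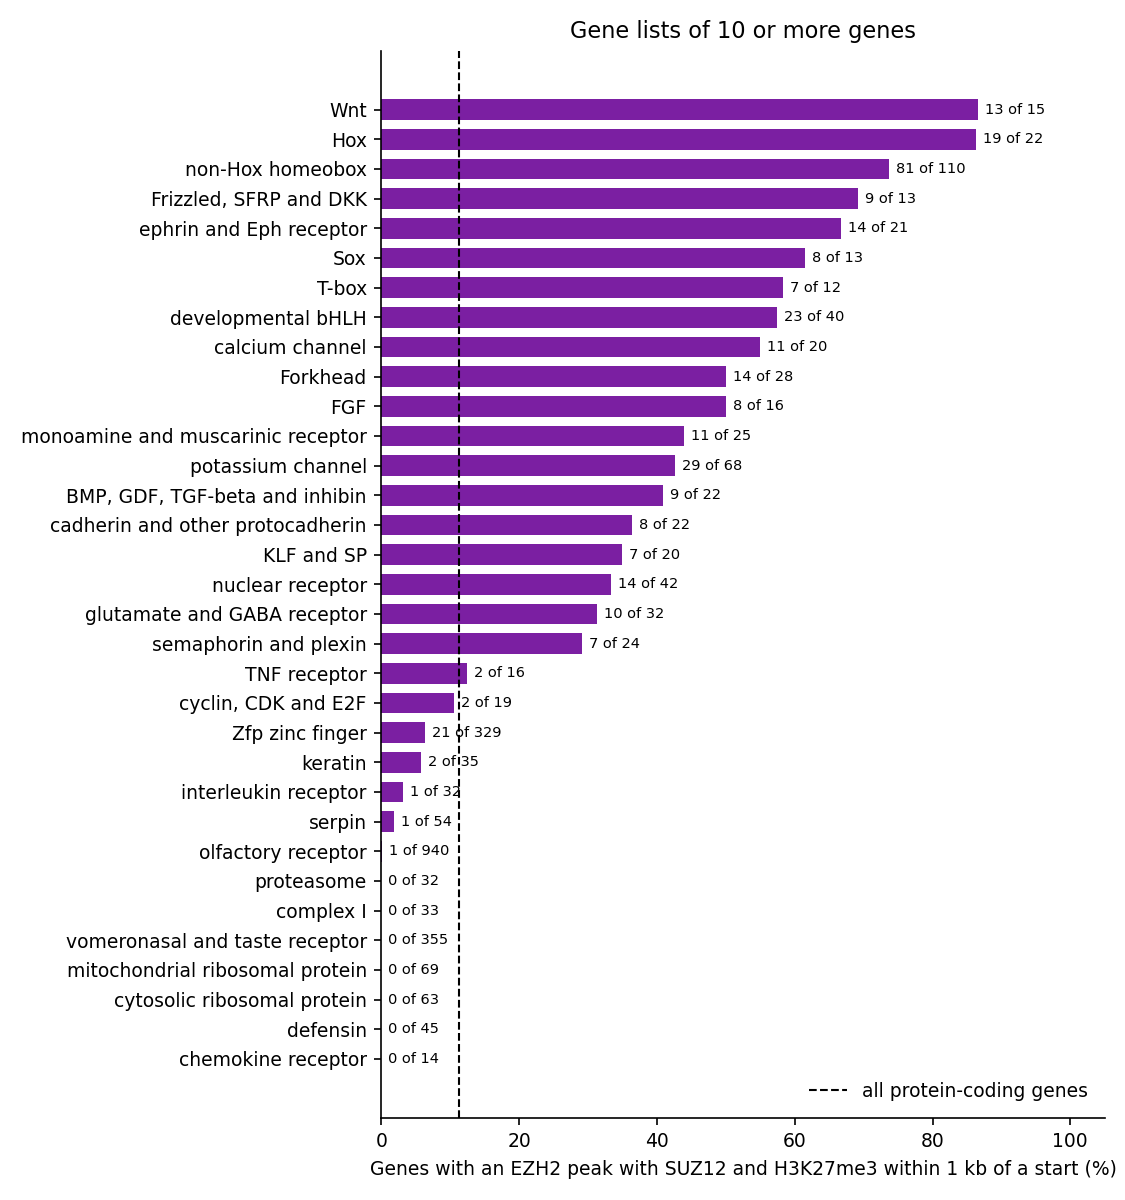
Percent of the genes of each list of 10 or more genes that had an EZH2 peak with SUZ12 and H3K27me3 within 1 kb of a known start, with counts beside the bars; the dashed line is the share over all protein-coding genes, 11.3%. Wnt and Hox genes stand at the top, and housekeeping lists and chemokine receptors at 0.

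Among secreted signals, Wnt ligands had a PRC2 site at 13 of 15 starts, led by Wnt11 (14.0), Wnt1 (12.9) and Wnt6 (11.6), and Wnt2 and Wnt8b lacked one. Both Hedgehog genes with a known start, Ihh (12.9) and Dhh (11.8), had a site. FGF genes had one at 8 of 16, with Fgf9 highest (16.4), and BMP, GDF, TGF-beta and inhibin genes at 9 of 22, with Gdf7 highest, ahead of Nodal (9.20). Ephrins and their Eph receptors, which guide cells by contact, had 14 of 21, led by Epha7 (14.0).

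Notch genes divided by role in whether they had a PRC2 site, but not in active marks. All 5 ligand genes had a site, Jag1 (12.5), Dll1 (9.93), Jag2 (7.30), Dll4 (6.70) and Dll3 (5.73). H3K4me3 lay at the first 3, with H3K27ac also at Jag1 and N-MYC also at Jag2. All 4 receptor genes lacked one. Notch1, which T-cell precursors need, and Notch2 carried H3K4me3, H3K27ac, N-MYC and p300, Notch3 carried H3K4me3 and H3K27ac, and Notch4 carried H3K27ac. Wnt receptors and inhibitors of the Frizzled, SFRP and DKK families had a site at 9 of 13, led by Fzd4 (14.2), while Fzd5, Fzd7, Fzd10 and Dkkl1 lacked one.

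Receptors of immune cells were near or under the background. Interleukin receptor genes had a site at 1 of 32 (Il11ra2, fold 4.05), chemokine receptors at 0 of 14, which leaves an upper bound of 21.5% in its Wilson interval, and TNF receptors at 2 of 16 (Tnfrsf11a, 6.78, and Tnfrsf19, 3.83). H3K4me3 lay at 14 of the 32 interleukin receptor genes, at 3 of the 14 chemokine receptor genes and at 10 of the 16 TNF receptor genes.

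Genes of excitable cells stood above the background but their sites were narrower than at homeobox genes. Potassium channels had a site at 29 of 68 starts, led by Kcnk13 (13.7), Kcng3 (13.2) and Kcnn1 (13.1), with a median width of 1589 bp. Calcium channels had 11 of 20, led by Cacna1c (14.0), the pore subunit of a cardiac and neuronal channel, and Cacnb4 (13.7). Monoamine and muscarinic receptors had 11 of 25, led by Adrb1 (11.6), and glutamate and GABA receptors 10 of 32, led by Grik4 (10.7). Among adhesion genes, cadherins and unclustered protocadherins had 8 of 22, with Cdh22 highest (14.4), and semaphorins and plexins 7 of 24. The clustered protocadherins had no start in the table, and by either gene end 1 of 57 had a site, where 12.3% of all 21887 genes did.

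Cell cycle genes were read in 2 lists. Of 6 CDK inhibitor genes, Cdkn2a (14.2), Cdkn1a (5.30) and Cdkn2b (4.40) had a site. Cdkn2a encodes the p16 and p19ARF tumour suppressors, Cdkn2b lies beside it, and Cdkn1a is a p53 target. Cdkn1b, Cdkn2c and Cdkn2d lacked a site. H3K4me3, H3K27ac, N-MYC and p300 peaks lay at the starts of these 3 and also of Cdkn2a, H3K4me3 and H3K27ac at Cdkn1a, and H3K4me3 alone of the 4 active lists at Cdkn2b. The site at Cdkn2a itself met none of the 4 lists, so the active peaks there lay near a start but off the site. The list of cyclins, CDKs and E2F genes had a site at 2 of 19 starts, E2f7 (5.23) and Ccna1 (3.80). That share was close to the background, and H3K4me3 lay at 17 of 19. The list did not take in every gene with such a symbol. Outside it, Cdk14 (8.41), Ccnyl1 (6.96), Cdk18 (5.73), Ccno (5.04) and Ccnjl (4.29) had a site. How many genes outside the list lacked one was not counted. The difference between these lists was not tested.

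Lists of broadly active genes had no site. Those of cytosolic ribosomal proteins (63), mitochondrial ribosomal proteins (69), the proteasome (32) and respiratory complex I (33) had 0, and H3K4me3 lay at 59, 69, 31 and 33 of them. Several tissue-restricted families were also nearly empty: olfactory receptors had 1 of 940 (Olfr94, fold 5.60), vomeronasal and taste receptors 0 of 355, defensins 0 of 45, serpins 1 of 54 (Serpinh1, 3.43) and keratins 2 of 35 (Krt8, 8.22, and Krt18, 3.57). H3K4me3 lay at 1 olfactory receptor start and at none of the keratins or defensins.

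Genes for noncoding RNAs were read over their whole length, where 7.98% of 49943 annotated genes of any type met a PRC2 site. rRNA genes were met in 48 of 63 cases. All 48 were the rRNA genes on chromosome 8, which lay in 2 sites covering 87574 bp with folds of 5.20 and 10.1. tRNA genes were met in 53 of 408 cases, by 30 sites, and EZH2 peaks with neither feature met 5. Both kinds exist in near-identical copies between which reads cannot be placed with certainty, so their enrichment is uncertain. lncRNA genes were met in 820 of 12727 cases (6.44%), snRNA genes in 8 of 1004 and snoRNA genes in 0 of 1340. Gene length differs between these kinds and was not accounted for, so their shares cannot be read directly against 7.98%.

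The 4 active lists were not used by the rule either. None of them met 6901 PRC2 sites (82.4%), and H3K4me3 met 1347, most often alone (680) or with H3K27ac (370). The share on H3K4me3, 16.1%, stood beside 12.9% of EZH2 peaks with H3K27me3 alone, 95.8% of those with neither feature and 52.7% of all EZH2 peaks. Sites on H3K4me3 were wider, with a median of 1476 bp against 485 bp, and more often within 1 kb of a protein-coding start, in 64.9% against 26.7% of cases. Their median EZH2 fold was 6.12 against 4.49 and their median H3K27me3 fold 11.3 against 14.0. In turn, the 1279 H3K4me3 peaks that met a site had a median H3K4me3 fold of 7.25, against 17.1 for the others. Marks on the same molecule and marks in different cells or on different alleles cannot be told apart in such a bulk sample. With neighbours within 3 kb merged, the shares of sites on H3K4me3, H3K27ac, N-MYC and p300 were 32.6, 17.5, 9.12 and 6.97%, against 16.1, 8.02, 3.28 and 2.48% as called.

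Active marks were met more often by wider sites, which can meet another list by size alone. In the narrowest decile (200 to 232 bp) 5.61% (4.24 to 7.38%) of sites met H3K4me3 and 16.8% lay near a protein-coding start. In decile 8 (1265 to 2079 bp) these shares were 30.0% and 47.0%, and H3K27ac (16.6%), N-MYC (67 of 837 sites) and p300 (7.05%) had their highest values. In the widest decile, from 3538 bp, H3K4me3 was met by 27.8% (24.9 to 30.9%) and H3K27ac by 10.6% (8.71 to 12.9%), although 57.2% of these sites lay near a start and their median EZH2 fold was 10.5.

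**Figure D4:**
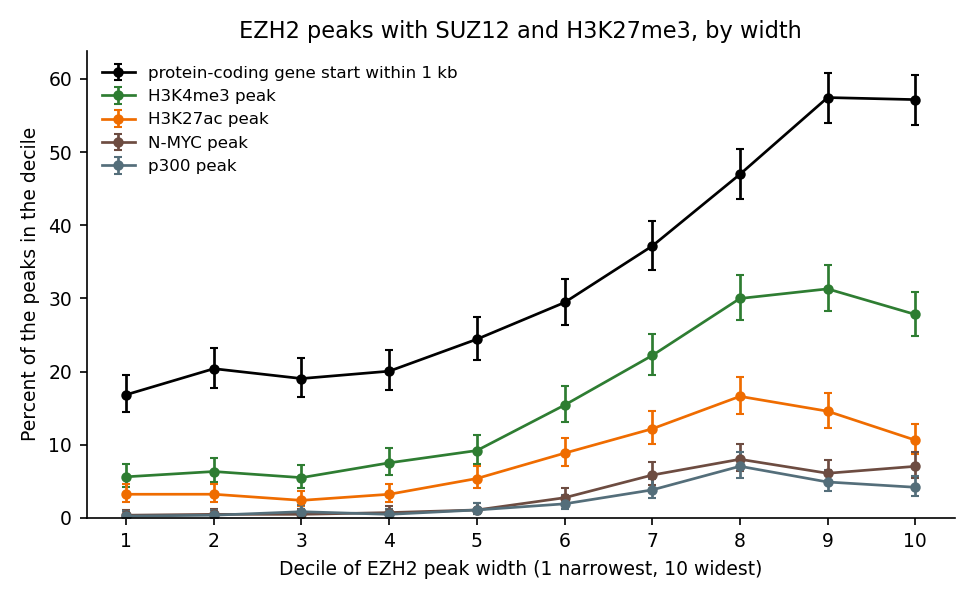
Percent of PRC2 sites with a protein-coding start within 1 kb or with a peak of each active list, by decile of EZH2 peak width; bars are 95% Wilson intervals. The share near a start goes from 16.8% in decile 1 to 57.2% in decile 10, and that with H3K27ac is highest in decile 8, at 16.6%.

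On all 4 active lists lay 108 sites (1.29%). The 5 strongest were at Bmi1, Cbx8, Cryzl1 with Itsn1 (19.2), Lhx1 (17.9) and Cdc40 with Wasf1 (16.8). At Bmi1 the H3K27ac fold was 24.1 and the N-MYC fold 5.74, beside folds of 16.5 for SUZ12 and 9.96 for H3K27me3. At Cbx8, in a site of 12904 bp, the H3K4me3 fold was 22.4 and the H3K27ac fold 5.44. The site at Lhx1, a homeobox gene of kidney and head development, also lay within 1 kb of a start of Aatf. It had the highest N-MYC fold of the 5, 11.4, with an H3K4me3 fold of 29.9. These folds are the highest of any peak that the site met, and which start those peaks lay nearer was not tested.

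Promoter sequence was compared over the 300-base windows shown for 5 genes above. The ratio of observed to expected CpG had a median of 0.735 (0.722 to 0.749) over 2326 promoters with a PRC2 site within 1 kb of the start, and of 0.567 over all 21263. Promoters with an EZH2 peak with neither feature had 0.841 and those with neither kind of EZH2 peak 0.273. Where the site also met H3K4me3 the median was 0.807, and where it did not, 0.699. A ratio of at least 0.6 was found in 70.2% of promoters with a site and 47.7% of all. The ratio had a Spearman correlation of 0.0905 with the EZH2 fold of the site over the 2326 promoters, many of which share a site.

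**Figure D5:**
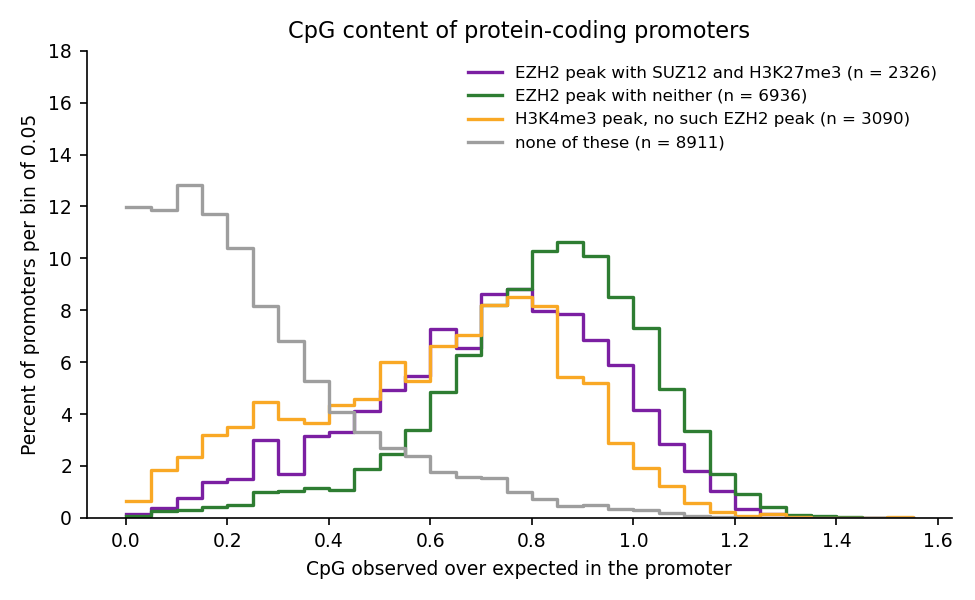
Histogram of CpG observed over expected in 300-base promoters, as the percent of promoters per bin of 0.05, for promoters with a PRC2 site, with an EZH2 peak with neither feature, with H3K4me3 and no such EZH2 peak, and with none of these. The first group has a median of 0.735 and lies between the second, at 0.841, and the third, at 0.649.

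The motifs CGCG and CACGTG (the E-box) were searched on both strands of these windows, on which they read the same, and they cannot share a CG. CGCG was in 75.6% (73.8 to 77.3%) of promoters with a PRC2 site, 81.7% of those with an EZH2 peak with neither feature and 49.2% of all promoters. CACGTG, the sequence that MYC proteins are known to bind, was in 7.22% (6.24 to 8.35%), 11.1% and 7.84%. Of the 5 promoters shown, Bmi1 held 1 CACGTG and the others none.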

How the data were processed

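The data are 7 peak lists in narrowPeak layout, 1 per antibody, with no header. The submitters' processing notes name FastQC, Bowtie2, SAMtools, MACS2 and deepTools and the builds mm10 and GRCm38, with no roles. Filters, pooling and use of the inputs are not given in the sources used here, and neither is the depth. The fold enrichment of each peak is a linear ratio as deposited by the authors, taken unchanged. For each peak, −log10 of its p-value and of its q-value were deposited by the authors, and the latter served as a filter in an alternative. A whole-number score per peak, as deposited, was not used, and the deposited summit offset served in an alternative.

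Peaks on 21 chromosomes were compared by overlap of at least 1 bp. A run is a chain of sites with gaps of at most 5 kb, and a site is at a start when its nearest edge lies within 1 kb. Shares have 95% Wilson intervals and medians order-statistic intervals, which cover counting error only. Expected CpG is the product of C and G counts over length. Starts, promoters and miRNAs came from RefSeq on GRCm38.p6: a protein-coding start was within 1 kb of 50.0% of the H3K4me3 summits, and of 3.62% with starts shifted by 100 kb. Coordinates count from 1.

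The sites and the 39 gene lists were chosen with earlier results of these data known. Named genes are the 10 strongest and 5 widest sites, the 6 runs with the most sites, the 3 strongest of each list (with the members that had or lacked a site where 5 or fewer did), the cell type markers, and the 5 strongest sites on all 4 active lists. The overlap, run and start steps were tested on simulated data. Python 3.11.15 with numpy 2.4.6, pandas 2.3.3 and scipy 1.17.1 was used. Alternatives changed the overlap, q-value, fold, merging, gap and start rule.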

Additional observations from a re-analysis of the deposited data

How the results depend on the processing

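For 11 results 61 alternative values were computed, of which 26 stayed within the reported interval or, for counts, within 1.5 times, and 35 did not. The cause was not tested unless stated. Where the overlap had to reach 50% of the shorter peak, the median width was 642.5 bp, the share in runs of 3 or more 54.4%, and the shares on H3K4me3, H3K27ac, N-MYC and p300 were 15.0, 6.83, 2.58 and 1.83%. Under a q-value limit of 1e-05, the width was 984 bp, the share in runs 42.2%, near a start 38.3% and on H3K4me3 17.6%. At a fold of at least 4 there were 4990 sites of median width 1106.5 bp, 38.7% in runs, 38.9% near a start, 17.5% on H3K4me3, 7.13% on H3K27ac and 2.08% on p300. Merging EZH2 peaks within 3 kb, which by construction joins neighbours, gave 3543 sites, 2759 bp, 0.254% in runs, 56.6% near a start, and 32.6, 17.5, 9.12 and 6.97% on H3K4me3, H3K27ac, N-MYC and p300. Gaps of 2 and 10 kb gave 57.2 and 62.0% in runs. Starts within 5 kb gave 53.1% near a start and a CpG ratio of 0.720, and starts inside the peak gave 19.9% and 0.753. Summits gave 27.8% near a start and 37.9% of homeobox genes. All annotated starts gave 37.3%, and either end of all protein-coding genes, an alternative chosen after seeing the data, gave 43.2%. The number of genes with a site stayed within 1.5 times of 1982 under the 8 alternatives run for it, from 1620 to 2685. No paired analysis was possible because each antibody had 1 library, and leaving out a replicate was not possible for the same reason. Depth is unknown, and the lists do not show sites under the authors' threshold.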
